A study of Homo sapiens with 9 samples.

Results

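The genes described here are 9 markers of radial glia and neuroepithelial cells, NES, VIM, FABP7, SLC1A3, TTYH1, PTPRZ1, PROM1, HOPX and MSI1, taken by gene symbol from a deposited table of 34961 genes. All 9 were in the table and each symbol stood for 1 gene. Radial glia are the neural stem cells of the developing brain and spinal cord. They arise from the neuroepithelium of the neural tube, divide beside the ventricle, carry a long fibre to the outer surface of the neural wall, and give rise to neurons first and to glia later. Their markers include cytoskeletal proteins of that fibre, proteins of lipid and glutamate handling, membrane proteins and an RNA-binding protein of stem cells, and most of them are low in mature neurons.

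RNA sequencing was done on WA09 cells (H9), an established human embryonic stem cell line, here with an EGFP reporter knocked in at TPH2, the gene of the enzyme that starts serotonin synthesis in the brain. All 9 libraries share this genotype and the label of an induced differentiation to serotonin neurons. There were 3 libraries each of Day0 (embryonic stem cells), Day21 (labelled neural progenitor cells) and Day42 (labelled TPH2+ serotonin neurons). Libraries of 1 day are labelled biological replicates, and no label says whether each came from its own differentiation. The p-values therefore cover only the spread among these libraries, some of which may be technical. The labels do not name a clone or say how TPH2+ cells were obtained. In bulk RNA, fewer cells of a type and less RNA per cell cannot be told apart.

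Total counts ran from 58526466 to 69658328 per library. POU5F1, a stem cell factor, had 373 to 725 CPM (counts scaled to a common library size by TMM) on Day0 and at most 0.38 on the later days, and TPH2 had 98.0 to 138 CPM on Day42 and at most 1.47 before. Day42 replicate 3 stood apart. It had 10797 genes above 0, against 16077 and 17101 in the other Day42 libraries and 22198 to 24741 on the earlier days. Of the 10450 genes with at least 1 CPM in both of the other Day42 libraries, 2946 (28.2%) were at 0 in it, while the same share was at most 2.29% for any other library. For this reason the tests of the markers and the counts of each gene list from Day21 to Day42 are also given without that library where a call or a count differs. Counts piled up at multiples of 4, so a library with 0 counts of a gene was taken to allow up to 3 such steps, or 12 counts, for counting error only.

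Levels of different genes are compared as FPKM, fragments scaled by gene length and library depth, and days are compared on the counts with edgeR's quasi-likelihood test. Calls needed a p under 0.05 after Benjamini-Hochberg adjustment over all 20156 genes tested, together with a log2 fold change of 1 or more in either direction. All 9 markers passed the filter on low counts and were tested in the fit of all libraries. The fit used all 9 libraries with a common estimate of each gene's spread, so a gene that varied widely among the Day42 libraries was also less easily called between Day0 and Day21. Values from a fit of only the 2 days compared, and from a fit without Day42 replicate 3, stand beside it where the call of a marker differs.

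On build GRCh38, NES (ENSG00000132688) was listed at chr1:156668763-156677407 on the minus strand and VIM (ENSG00000026025) at chr10:17228241-17237593 on the plus strand. FABP7 (ENSG00000164434) lay at chr6:122779716-122784074, SLC1A3 (ENSG00000079215) at chr5:36606355-36688334, TTYH1 (ENSG00000167614) at chr19:54415219-54436900 and PTPRZ1 (ENSG00000106278) at chr7:121873089-122062036, all on the plus strand. PROM1 (ENSG00000007062) lay at chr4:15963076-16084023, HOPX (ENSG00000171476) at chr4:56647988-56681899 and MSI1 (ENSG00000135097) at chr12:120341330-120369164, all on the minus strand. In GENCODE release 29, NES, FABP7, PTPRZ1 and MSI1 overlap no other gene. TTYH1 and SLC1A3 overlap models named only by clone on both strands, PROM1 overlaps FGFBP2 and HOPX a clone-named model on the same strand, and VIM overlaps its antisense gene VIM-AS1 and another model on the other strand. The counting used a strand setting not given in the sources used here, so reads of these 5 genes and of their overlapping partners cannot be told apart.

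RefSeq's sequences (GRCh38.p14) held the 250 bases before the start of 8 of the 9 genes, the exception being MSI1. Those of NES, VIM and SLC1A3 are shown because these genes were higher in every Day21 library than in every Day0 library and their stretch holds none of their own exons. Capitals mark matches, on either strand, to a GC box (GGGCGG or CCGCCC) or to a short motif that SOX factors recognise (ACAAT or ATTGT).
NES (chr1:156677408-156677657, minus strand): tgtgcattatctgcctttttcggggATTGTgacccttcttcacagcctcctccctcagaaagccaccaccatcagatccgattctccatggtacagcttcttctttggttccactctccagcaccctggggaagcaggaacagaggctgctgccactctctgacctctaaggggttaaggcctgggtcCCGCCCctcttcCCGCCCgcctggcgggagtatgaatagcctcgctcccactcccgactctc
VIM (chr10:17227991-17228240, plus strand): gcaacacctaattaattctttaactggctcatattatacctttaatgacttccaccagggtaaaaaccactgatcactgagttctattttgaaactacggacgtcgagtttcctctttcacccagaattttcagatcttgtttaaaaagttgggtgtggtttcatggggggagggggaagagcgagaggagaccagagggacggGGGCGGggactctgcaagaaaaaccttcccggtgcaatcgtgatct
SLC1A3 (chr5:36596338-36596587, plus strand): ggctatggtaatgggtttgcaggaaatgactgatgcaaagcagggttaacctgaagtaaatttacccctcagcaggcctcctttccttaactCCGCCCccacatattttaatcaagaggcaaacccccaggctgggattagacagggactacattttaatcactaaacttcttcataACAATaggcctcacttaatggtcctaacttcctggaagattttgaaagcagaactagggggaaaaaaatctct

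A GC box was found before 5 of the 8 genes (NES, VIM, SLC1A3, TTYH1 and PTPRZ1), and 42.3% of all 27305 promoters of this length held one. The SOX motif was found before 3 (NES, SLC1A3 and PTPRZ1), against 25.2% of all promoters, and CCAAT or ATTGG before 3 (FABP7, TTYH1 and PROM1), against 33.04%. A TATA box (TATAAA), the octamer ATGCAAAT of POU factors, GTGGGAA of the Notch effector RBPJ and the E-box CACGTG, searched on both strands, were in none of the 8. The SOX motif shares the letters CAAT with CCAAT. The 3 stretches differed in CG pairs, with 8 for NES, 8 for VIM and 1 for SLC1A3, whose RefSeq start lies before the start listed in the table, and the median over all promoters was 11. By GENCODE, the stretches of PROM1 and HOPX lay wholly in exons of the same gene (250 bases each). Those of FABP7, TTYH1 and PTPRZ1 did so in part (241, 109 and 72 bases), so the tally is not only of bases outside the genes. The matches describe the sequences only.

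The summed FPKM of the 9 markers was highest on Day21. It was 62.1 to 85.2 on Day0, 219 to 272 on Day21 and 68.7 to 97.3 on Day42, with no Day21 library overlapping another day. Most of the Day21 sum was VIM and FABP7, and the other 7 markers held 10.9% to 18.2% of it. All 9 were at or above 12 counts in each Day21 library and 8 of 9 in each Day0 library, where HOPX was at 0. On Day42, 6, 7 and 2 of the 9 reached 12 counts in replicates 1, 2 and 3. Between Day0 and Day21, 7 of the 9 were higher in CPM in every Day21 library than in every Day0 library, while 24.7% of all genes tested were, and FABP7 and PROM1 overlapped. Between Day21 and Day42, 8 of the 9 were lower in TMM-scaled CPM in every Day42 library, against 34.7% of all genes, and HOPX overlapped. In FPKM, MSI1 overlapped as well, at 2.76 to 3.74 on Day21 and 2.40 to 3.90 on Day42. Between Day0 and Day42, VIM and MSI1 were higher in every Day42 library and 6 of the 9 lower, against 11.4% and 34.1% of all genes, and HOPX overlapped.

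**Figure D1:**
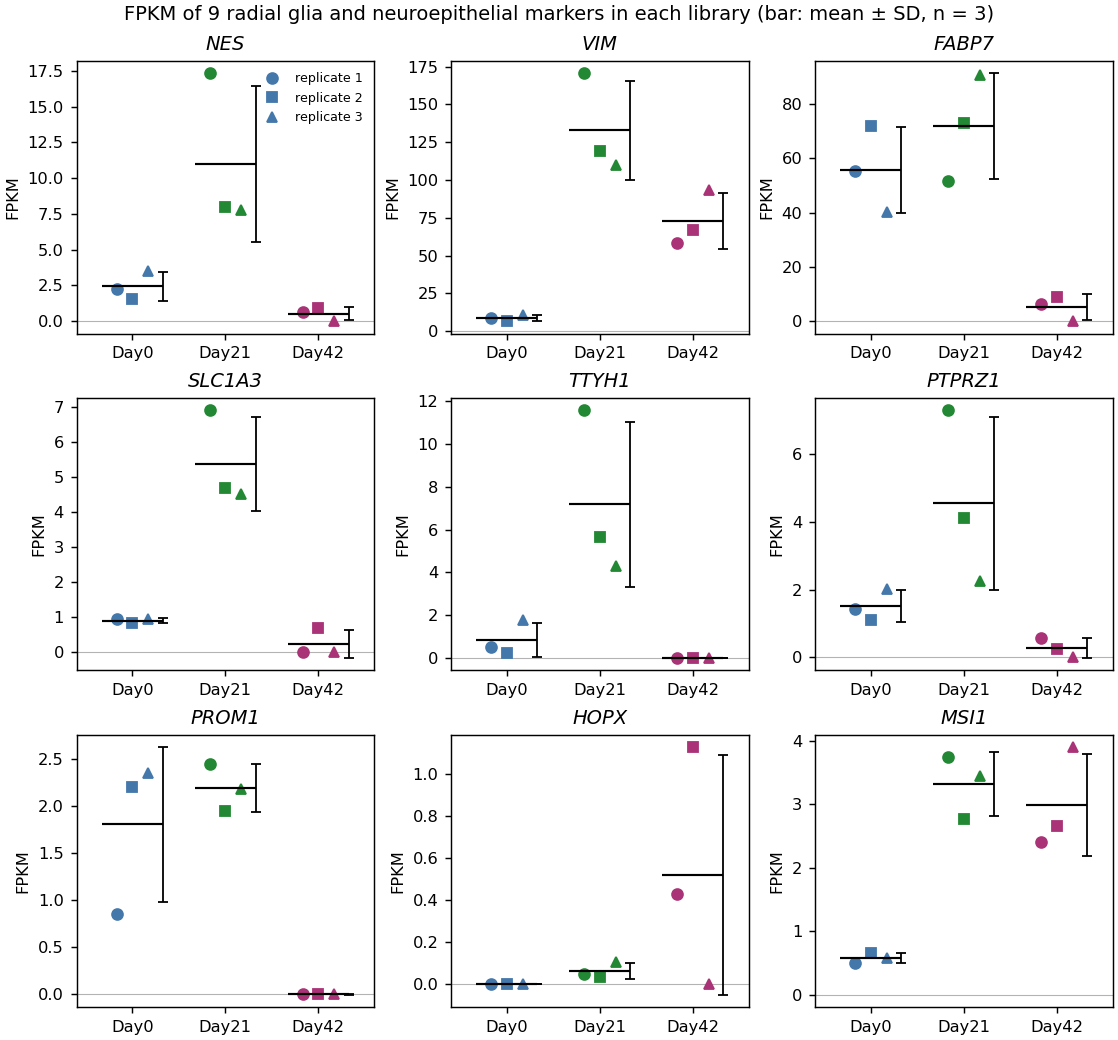
FPKM of each marker (vertical axes, 1 scale per gene) in the 3 libraries of Day0, Day21 and Day42, with the mean as a line and the SD as a bar beside it (n = 3). NES, VIM, SLC1A3, TTYH1, PTPRZ1 and MSI1 were higher in all Day21 libraries than in all Day0 libraries, VIM and MSI1 kept high values on Day42, and HOPX had its highest values in 2 Day42 libraries.

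In the fit of all 9 libraries, 1 of the 9 markers, VIM, rose from Day0 to Day21 and none fell, all 9 fitted values being above 0, beside 2.50% of all genes called (1.32% higher and 1.18% lower). In the fit of Day0 and Day21 alone, 7 rose, all but FABP7 and PROM1, and none fell, beside 25.6% called (13.0% higher and 12.6% lower). Without Day42 replicate 3, 5 rose and none fell, beside 13.3% called (6.57% higher and 6.69% lower). From Day21 to Day42, 4 fell (NES, VIM, TTYH1 and PROM1) and none rose, HOPX alone having a fitted value above 0, beside 26.3% called (6.52% higher and 19.7% lower). Without Day42 replicate 3, 6 fell and HOPX rose, beside 33.3% called (11.1% higher and 22.3% lower), and in the fit of the 2 days alone 3 fell and none rose, beside 22.0% called (5.81% higher and 16.2% lower). From Day0 to Day42, VIM, HOPX and MSI1 rose and TTYH1 and PROM1 fell, beside 32.2% called (8.82% higher and 23.4% lower). Without Day42 replicate 3, 3 rose and 5 fell, beside 40.7% called (14.8% higher and 25.9% lower), and in the fit of the 2 days alone, where 8 of the 9 were tested and HOPX was not, 1 rose and 2 fell, beside 25.4% called (6.89% higher and 18.5% lower).

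The median log2 fold change of the 9 was 2.46 from Day0 to Day21, or 2.10 with HOPX at its lower bound, against 0.03 over all genes. It was -4.66 from Day21 to Day42 against -0.54, and -2.99 from Day0 to Day42 against -0.57. The 3 comparisons share libraries and are not independent of each other.

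The scaling of libraries bears on the Day42 values. With library totals in place of TMM, fold changes of all genes moved up by a median of 0.52 (log2) in Day42 against Day21 and 0.62 in Day42 against Day0. The share of higher genes among those called was 24.8% and 27.4% in these comparisons with TMM, 37.0% and 39.7% with library totals, and 54.5% and 52.9% with limma on log2(FPKM + 1). No marker changed direction under another scaling.

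**Figure D2:**
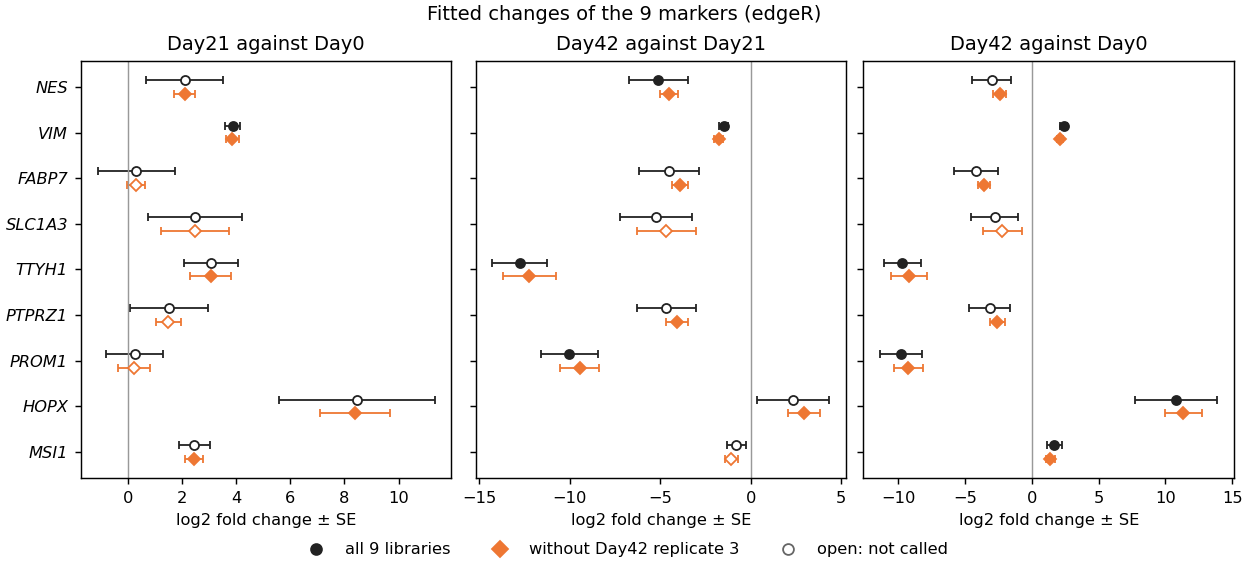
Fitted log2 fold change with its SE (horizontal axes) of the 9 markers in the 3 comparisons, from all 9 libraries (circles) and without Day42 replicate 3 (diamonds), filled where the gene was called. VIM at 3.88 was the only filled circle in Day21 against Day0, and TTYH1 and PROM1 lay at -12.76 and -10.03 in Day42 against Day21.

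The intermediate filaments of radial glia, nestin (NES) and vimentin (VIM), parted on Day42. NES had FPKM of 2.24, 1.53 and 3.52 in the Day0 libraries, 17.3, 7.98 and 7.75 in the Day21 libraries, and 0.618, 0.887 and 0 in the Day42 libraries. Every Day21 library was above every Day0 library, and every Day42 library was below both days. The mean was 4.53-fold higher on Day21 than on Day0 (11.0 ± 5.46 against 2.43 ± 1.01 FPKM, SD, n = 3). The log2 difference was 2.10 ± 1.42 (SE, adjusted p = 0.578) with all libraries. NES rose in the fit of the 2 days alone (2.09, adjusted p = 0.00499) and in the fit without Day42 replicate 3 (2.10, adjusted p = 0.0121). From Day21 to Day42 NES fell by 5.10 ± 1.62 on the log2 scale (adjusted p = 0.0486). That call was lost when any 1 library other than Day42 replicate 3 was left out (adjusted p from 0.0712 to 0.119), in the fit of the 2 days alone (-5.09, adjusted p = 0.124), with no filter (adjusted p = 0.0524), with library totals (adjusted p = 0.0695) and with the replicate number as a block (adjusted p = 0.115), and held without replicate 3 (-4.51, adjusted p = 0.000675). Day42 against Day0 gave -2.99 (adjusted p = 0.162), and a fall without replicate 3 (-2.41, adjusted p = 0.00435).

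VIM, also a filament of mesenchymal and many cultured cells, had FPKM of 8.37, 6.79 and 10.9 at Day0, 170.5, 118.9 and 109.7 at Day21, and 58.1, 66.6 and 93.4 at Day42. The 3 days did not overlap, and Day42 lay between the others. VIM rose from Day0 to Day21 by 3.88 ± 0.28 on the log2 scale (SE, adjusted p = 0.000646), a 15.3-fold higher mean FPKM. It fell from Day21 to Day42 by 1.49 ± 0.26 (adjusted p = 0.0042), and by 1.75 without Day42 replicate 3 (adjusted p = 0.00175). With library totals that fall was 1.01 (adjusted p = 0.0244), and with limma on log2(FPKM + 1) the difference of -0.86 (adjusted p = 0.0291) was under the fold limit. VIM was still higher on Day42 than on Day0 (2.38 ± 0.27, adjusted p = 0.000605). Among all genes, VIM ranked 279th to 500th by FPKM in the Day21 libraries.

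The ratio of VIM to NES in FPKM was 3.74, 4.43 and 3.08 on Day0 and 9.84, 14.9 and 14.2 on Day21. It was 94.2 and 75.1 in the Day42 libraries with NES above 0. The ranges of the 3 days did not overlap. VIM made up 7.97% to 17.5% of the markers' summed FPKM on Day0, 48.8% to 62.8% on Day21 and 82.0% to 96.0% on Day42, so the sum on Day42 is mostly a level of VIM.

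**Figure D3:**
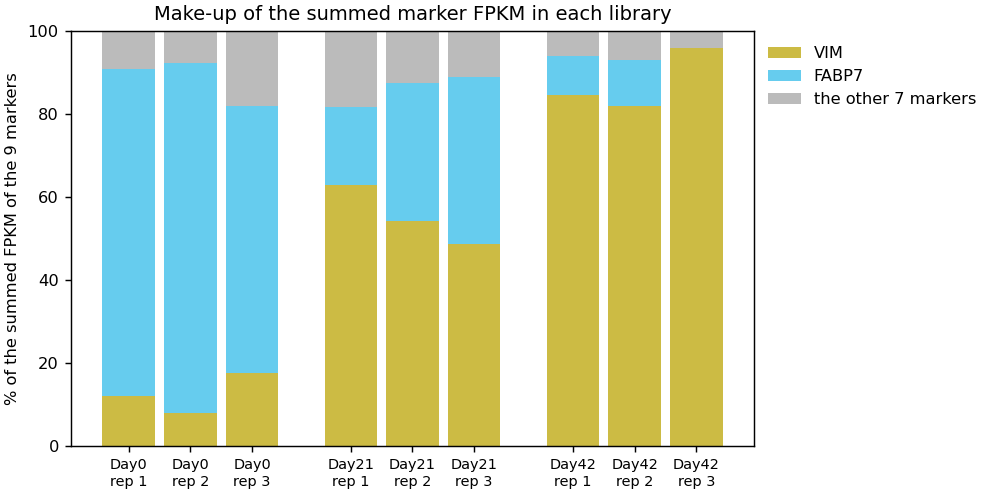
Share of the summed FPKM of the 9 markers (vertical axis, percent) taken by VIM, FABP7 and the other 7 genes in each of the 9 libraries. FABP7 held 64.5% to 84.4% on Day0, and VIM held 82.0% to 96.0% on Day42.

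Mesenchyme markers also differed between the days. Of 11 such genes, 2 rose and 1 fell from Day0 to Day21, 9 rose and 2 fell in the fit of the 2 days alone, and 6 rose and 2 fell without Day42 replicate 3. The median log2 fold change was 2.89, against 0.03 over all genes. DCN, a matrix proteoglycan, had 0.0218 CPM on Day0, 90.3 ± 6.36 (SD, n = 3) on Day21 and 31.2 on Day42. It rose from Day0 to Day21 (adjusted p = 0.00238), to a level at least 397-fold higher against the limit of 12 counts per Day0 library. LUM, its relative, had 256.5, 360.7 and 342.5 CPM on Day21 and at most 0.0726 on Day0. Summed over the list, the level was 634 to 855 CPM on Day0, 667 to 731 on Day21 and 168 to 219 on Day42, with LUM, DCN and PRRX1 under the limit on Day0 and PRRX1 at 0 on Day42. Most of the Day0 sum was THY1, a surface glycoprotein of neurons too, named here after its values were seen, which had 590.9 to 814.7 CPM on Day0 and fell to 54.6 to 60.5 on Day21 (adjusted p = 0.00125). Between Day21 and Day42, 4 of the 11 fell, 5 without Day42 replicate 3, and the median was -2.87. The part of such cells in the VIM values was not tested.

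FABP7, the brain fatty acid-binding protein of radial glial fibres, was already high in the stem cells. Its FPKM values were 55.3, 71.9 and 40.1 at Day0, 51.7, 73.0 and 90.7 at Day21, and 6.50, 9.04 and 0 at Day42. The Day0 and Day21 libraries overlapped, and all Day42 libraries lay below both. FABP7 was the highest of the 9 on Day0 (55.8 ± 15.9 FPKM, SD, n = 3) and the next after VIM on Day21 (71.8 ± 19.5). Day21 against Day0 gave a log2 difference of 0.32 ± 1.43 (SE, adjusted p = 0.994), and 0.31 in the fit of the 2 days alone (adjusted p = 0.559). Day42 against Day21 gave -4.51 ± 1.66 (adjusted p = 0.0799), and Day42 against Day0 gave -4.19 (adjusted p = 0.0854). Without Day42 replicate 3, FABP7 fell from Day21 (-3.91, adjusted p = 0.000737) and from Day0 (-3.604, adjusted p = 0.000663). The mean FPKM was 13.9-fold higher on Day21 than on Day42, and 9.24-fold without that library.

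SLC1A3 encodes GLAST, the glutamate transporter of radial glia and astrocytes. FPKM was 0.937, 0.817 and 0.932 on Day0 and 6.90, 4.68 and 4.51 on Day21. On Day42 its counts were 0, 308 and 3, so replicate 2 alone was above the limit of 12 counts. Day21 was 5.99-fold above Day0 in mean FPKM without overlap. The fit of all libraries gave 2.49 ± 1.74 (SE, adjusted p = 0.604), and in the fit of the 2 days alone SLC1A3 rose by 2.48 (adjusted p = 0.000306). Without Day42 replicate 3 the Day21 difference was not called (adjusted p = 0.238). Day42 against Day21 gave -5.24 ± 1.97 (adjusted p = 0.0865) and without replicate 3 -4.67 (adjusted p = 0.0589). Without Day42 replicate 2, the library with 308 counts, SLC1A3 fell from Day21 (adjusted p = 0.0018) and from Day0 (adjusted p = 0.00222). With the 2 remaining Day42 libraries at 12 counts, the ratios would be 313 and 55.8.

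The membrane proteins TTYH1, PTPRZ1 and PROM1 differed in how far down they were on Day42. TTYH1, a tweety-family membrane protein of neural stem cells, had 257, 135 and 999 counts at Day0, 6980, 3314 and 2459 at Day21, and 0, 2 and 0 at Day42. No days overlapped. In FPKM the means were 0.832 ± 0.812 on Day0 and 7.18 ± 3.86 on Day21 (SD, n = 3), 8.63-fold apart. The log2 difference was 3.07 ± 0.99 (SE, adjusted p = 0.141), and TTYH1 rose in the fit of the 2 days alone (adjusted p = 0.0132) and without Day42 replicate 3 (adjusted p = 0.0338). TTYH1 fell from Day21 to Day42 (-12.76 ± 1.52, adjusted p = 0.00121) and from Day0 to Day42 (-9.69, adjusted p = 0.00177). From the summed counts, 12753 on Day21 and 2 on Day42, the scaled ratio was 8806 with an exact (Clopper-Pearson) 95% interval of 2437 to 72720. That interval takes every count as its own molecule and leaves out the spread among libraries. With each Day42 library at the limit of 12 counts the ratio would be 471, below the interval, and the fitted values depend on the prior count. On the log2(FPKM + 1) scale with limma, the Day42 against Day0 difference was -0.78 (adjusted p = 0.139).

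PTPRZ1, a receptor tyrosine phosphatase that binds the growth factor pleiotrophin, had FPKM of 1.42, 1.10 and 2.02 at Day0, 7.31, 4.12 and 2.25 at Day21, and 0.582, 0.249 and 0 at Day42. The lowest Day21 library was just above the highest Day0 library, and Day42 lay below both days. The log2 difference from Day0 to Day21 was 1.51 ± 1.44 (SE, adjusted p = 0.772), and PTPRZ1 rose in the fit of the 2 days alone (1.496, adjusted p = 0.0226). Day42 against Day21 gave -4.66 ± 1.64 (adjusted p = 0.0687), and a fall without Day42 replicate 3 (-4.07, adjusted p = 0.0024). Day42 against Day0 gave -3.15 (adjusted p = 0.157), and likewise a fall without that library (-2.57, adjusted p = 0.00943).

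PROM1 encodes prominin-1 (CD133), a protein of membrane protrusions on the apical face of neuroepithelial cells and a marker of other stem cells. The Day0 libraries had 458, 1325 and 1412 counts, the Day21 libraries 1556, 1206 and 1308, and the Day42 libraries 0, 5 and 0. Day0 and Day21 overlapped, with means of 1.80 ± 0.823 and 2.19 ± 0.25 FPKM (SD, n = 3). The log2 difference was 0.25 ± 1.05 (SE, adjusted p = 0.993) and 0.24 in the fit of the 2 days alone (adjusted p = 0.65). Without Day0 replicate 1, the lowest library, it was -0.05 (adjusted p = 1). PROM1 fell to Day42 from Day21 (-10.03 ± 1.57, adjusted p = 0.0031) and from Day0 (-9.78, adjusted p = 0.00253), and both falls were called under every alternative run. Against the limit of 12 counts in each Day42 library, the mean CPM was at least 156.0-fold higher on Day21 and at least 131.0-fold higher on Day0, and the fitted values are no bounds.

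HOPX, an atypical homeodomain protein without DNA binding of its own and a marker of outer radial glia, was the only one of the 9 with its highest mean FPKM on Day42. It was at 0 in all Day0 libraries, had 32, 21 and 65 counts on Day21, and 232, 631 and 0 on Day42. Day42 replicates 1 and 2 were above all Day21 libraries, and replicate 3 was at 0. In FPKM these are low levels, at most 0.103 on Day21 and 1.13 on Day42. Against the limit of 12 counts, the mean CPM was at least 2.97-fold higher on Day21 than on Day0 and at least 15.3-fold higher on Day42, or 22.9-fold without replicate 3. The adjusted p from Day0 to Day21 was 0.194, and HOPX rose in the fit of the 2 days alone (adjusted p = 0.00931) and without Day42 replicate 3 (adjusted p = 0.0128). The rise from Day0 to Day42 (adjusted p = 0.0379) was lost under 9 of 15 alternatives. These were the fits without any 1 library other than Day42 replicate 3 (adjusted p from 0.0577 to 0.0896) and the replicate block. Day42 against Day21 gave 2.36 ± 2.01 (SE, adjusted p = 0.478), and a rise of 2.96 without Day42 replicate 3 (adjusted p = 0.0488).

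MSI1 encodes Musashi-1, an RNA-binding protein of neural stem cells. In FPKM it had 0.495, 0.661 and 0.571 at Day0, 3.74, 2.76 and 3.44 at Day21, and 2.40, 2.66 and 3.90 at Day42. Both later days were above every Day0 library and overlapped each other in FPKM. The mean was 5.76-fold higher on Day21 than on Day0. The log2 difference was 2.46 ± 0.57 (SE, adjusted p = 0.0514), just outside the threshold, and MSI1 rose in the fit of the 2 days alone (2.45, adjusted p = 0.000665) and without Day42 replicate 1, 2 or 3 (adjusted p = 0.0488, 0.0454 and 0.00412). From Day0 to Day42 MSI1 rose by 1.68 ± 0.55 (adjusted p = 0.0464), a call lost under 10 of 18 alternatives. Among these were the fits without any 1 library of Day0 or Day21 (adjusted p from 0.0888 to 0.152) and of the 2 days alone (1.73, adjusted p = 0.219). The call was also lost with no filter (adjusted p = 0.148) and with the replicate block (adjusted p = 0.161). Without Day42 replicate 3 the rise was 1.40 (adjusted p = 0.0159). Day42 against Day21 gave -0.78 ± 0.54 (adjusted p = 0.356), -0.29 with library totals, and -1.05 without Day42 replicate 3 (adjusted p = 0.0606). MSI1 and VIM were the only markers with over 12 counts in Day42 replicate 3, which had 941 and 37929.

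The order of the 9 by FPKM differed between the days. On Day0 it was FABP7, VIM, NES, PROM1, PTPRZ1, SLC1A3, TTYH1, MSI1 and HOPX. The ranges of NES, PROM1 and PTPRZ1 overlapped from each to the next, as did those of SLC1A3, TTYH1 and MSI1, and the other neighbours were apart. On Day21 it was VIM, FABP7, NES, TTYH1, SLC1A3, PTPRZ1, MSI1, PROM1 and HOPX, with overlaps among the run from NES to MSI1. On Day42 it was VIM, FABP7, MSI1, HOPX, NES, PTPRZ1, SLC1A3, PROM1 and TTYH1. There VIM (72.7 ± 18.4 FPKM, SD, n = 3) was apart from FABP7, MSI1 was apart from HOPX, and the rest overlapped their neighbours.

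The genes most like each marker were sought by the root mean square difference of log2 CPM over the 9 libraries, each profile centred on its own mean, among 9907 genes with a mean CPM of at least 5. The nearest to NES was the glucose transporter gene SLC2A1 (0.465, with 99.2, 328.6 and 13.5 CPM on Day0, Day21 and Day42), then PTPRZ1 (0.538) and RGMA (0.615). The nearest to VIM were TLE4 (0.386), CCDC80 (0.445) and FAM89B (0.451). FABP7 lay very near CSRP2 (0.214, with 230.2, 293.3 and 15.1 CPM), then BAX (0.40) and ZWINT (0.447). SLC1A3 was nearest to ARID3A (0.332), then SELENBP1 and CD70.

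TTYH1 was nearest to UHRF1 (0.592), E2F1 and LAMA1, each at 0 CPM on Day42. PTPRZ1 was nearest to GYPC (0.395), E2F7 and NES. PROM1 was nearest to ECT2 (0.421), a gene of cell division, TROAP and IQGAP2. HOPX had the most distant neighbour of the 9, ANKRD44 (0.791), then TBC1D9 and SLC40A1. MSI1 was nearest to the pseudogene CIBAR1P1 (0.288), then CTSB (0.319) and GLIPR2 (0.336). Among the 9 themselves the nearest pairs were NES with PTPRZ1 (0.538), VIM with MSI1 (0.637) and FABP7 with PTPRZ1 (1.24). These are descriptions over 9 libraries that share their days and depth. They include Day42 replicate 3, in which 6 of the 9 markers were at 0 and VIM and MSI1 were not. Distances without that library were not computed, and the part of its zeros in the order was not tested.

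Transcription factors of neural progenitors were counted beside the markers. Of 14 tested among 15, 3 rose and none fell from Day0 to Day21 (median log2 fold change 2.81, all genes 0.03), 12 rose in the fit of the 2 days alone, and 5 without Day42 replicate 3. From Day21 to Day42, 2 rose and 6 fell, with 1 and 8 without Day42 replicate 3 (median -4.50, or -4.05 with genes at 0 on a day at their bound). HES5, a Notch target that keeps progenitors from becoming neurons, was at 0 on Day0 and Day42 and had 12.2 ± 1.15 CPM on Day21 (SD, n = 3, adjusted p = 0.03 for the rise and 0.0049 for the fall). GLI3, a Hedgehog effector, fell from 44.2 CPM on Day21 to 0.0158 on Day42 (adjusted p = 0.00211). SOX3, a neuroepithelial factor, fell from 13.6 to 0.0197 CPM (adjusted p = 0.0074). GLI3 and SOX3 were both under 12 counts in every Day42 library. ID4 and HEY1, named here after their values were seen, went the other way. The mean of ID4 went from 54.3 CPM on Day21 to 145.6 on Day42, and that of HEY1 from 4.61 to 42.4. HEY1 varied among the Day42 libraries, with 14.8, 7.71 and 104.7 CPM. SOX1 had 169, 136 and 107 counts on Day21 but 40, 786 and 0 on Day42, libraries in which HOPX had 232, 631 and 0.

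The 9 other genes used to mark outer radial glia had a median log2 fold change of 0.41 from Day0 to Day21, and in the fit of the 2 days alone 2 rose and 1 fell. From Day21 to Day42, 2 rose and 1 fell (median 1.96), and without Day42 replicate 3, 4 rose and 2 fell. TNC, a matrix glycoprotein, had 1.41 CPM on Day21 and 20.6, 5.28 and 51.3 on Day42, and rose from Day0 to Day42 (adjusted p = 0.0198), a call lost in the fit of the 2 days alone. PDGFD, a growth factor, rose from 3.96 to 27.1 CPM between Day21 and Day42 (adjusted p = 0.0155), and STAT3 from 27.8 to 83.5 (adjusted p = 0.0161). FAM107A, a cytoskeletal gene also used as a marker of these cells, went the other way and fell from 1.10 CPM to 0 in all Day42 libraries (adjusted p = 0.0275).

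Of 11 genes of apical junctions and polarity, 1 rose from Day0 to Day21 (median -0.03), and 2 rose and 2 fell from Day21 to Day42 (median -0.37). CDH2, N-cadherin of the neuroepithelial junctions, rose in both steps, from 8.57 to 41.6 to 98.3 CPM (adjusted p = 0.025 and 0.0464), but from Day21 to Day42 it was not called in the fit of the 2 days alone (adjusted p = 0.0833) or without Day42 replicate 3, where 0.82 was under the fold limit and 1 gene of the list rose. CRB2 and CRB1, proteins of the apical Crumbs complex, fell from 3.41 and 2.10 CPM on Day21 to 0 and 0.0158 on Day42 (adjusted p = 0.0189 and 0.0453, and 0.0542 for CRB1 in the fit of the 2 days alone). Both were under 12 counts in every Day42 library. PRKCI, a polarity kinase, rose from 13.4 to 50.1 CPM (adjusted p = 0.0184).

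Paralogs and binding partners of the markers were counted as a list of 23, of which 22 were tested. From Day0 to Day21, 4 rose and 2 fell (median 0.84), with 6 and 5 without Day42 replicate 3. Between Day21 and Day42, 6 rose and 7 fell (median -0.59), with 7 and 8 without that library. TTYH2, a paralog of TTYH1, had 3.89 CPM on Day21 and 0 in all Day42 libraries (adjusted p = 0.00299). The filament genes GFAP, PRPH and DES were all at 0 on Day42, from a mean of at most 1.02 CPM on any earlier day. The next genes of this list, chosen after their values were seen, are neuronal filaments, ligands and a transporter. NEFL rose in both steps, from 27.4 to 242.0 to 1273 CPM (adjusted p = 0.00044 and 0.000352), and INA from 4.67 to 20.6 to 228.7 (adjusted p = 0.0419 and 0.00162). NEFM, their relative, rose from 21.2 to 304.4 CPM (adjusted p = 0.00199) and had 202.7 on Day42 (adjusted p = 0.238). Pleiotrophin (PTN) and midkine (MDK), ligands of PTPRZ1, fell from Day21 to Day42 by 6.79 ± 1.35 and 4.66 ± 0.33 on the log2 scale (SE, adjusted p = 0.00732 and 0.000215). SLC1A2, the astrocytic paralog of SLC1A3, went the other way and rose by 4.39 ± 0.70 (adjusted p = 0.00329), with 16.5, 19.6 and 22.6 CPM on Day42.

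Markers of other cell types that express some of the 9 were counted as well. Of 9 astrocyte markers, 3 fell from Day0 to Day21 in the fit of the 2 days alone (median -0.27 with all libraries), and 1 rose and 4 fell from Day21 to Day42 (median -0.99, or -0.74 at the bounds), with 1 and 3 without Day42 replicate 3. The 4 that fell with all libraries, GFAP, AQP4, ALDH1L1 and AGT, were at 0 in every Day42 library. GFAP, with 13, 7 and 6 counts, and ALDH1L1, with 16, 7 and 9, were already mostly under the count limit on Day21. The falls of GFAP and ALDH1L1 therefore could not be told from no change. The gene that rose was SLC1A2, from a mean of 0.93 CPM to 19.6. The summed level was 755 to 1606 CPM on Day0, 515 to 1022 on Day21 and 321 to 513 on Day42. Of 7 oligodendrocyte precursor markers, 5 were tested and 2 fell from Day21 to Day42 (median -2.74, or -1.76 at the bounds), and without Day42 replicate 3, 1 rose and 4 fell, with OLIG1, CSPG4 and GPR17 at 0 on Day42 and sums of 17.8 to 30.4, 26.2 to 37.0 and 3.75 to 13.9 CPM on the 3 days. Of 8 neural crest and glial precursor markers, 6 were tested and 2 fell from Day21 to Day42 (median -3.10, or -1.34 at the bounds), 3 of 7 without Day42 replicate 3, with FOXD3, TFAP2A and PAX3 at 0 on Day42 and sums of 13.7 to 17.4, 28.1 to 36.5 and 5.71 to 13.9 CPM. The part of these cells in the markers' values was not tested.

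Neuron and cell division genes changed as well. Of 10 neuron markers, 7 rose from Day0 to Day21 and 6 from Day21 to Day42 with all libraries, and none fell. The medians were 4.71 (3.835 at the bounds) and 3.12, and 8 and 7 rose without Day42 replicate 3. Fitting Day0 and Day21 alone gave 9 rises and 1 fall. RBFOX3 alone had a lower mean at the later of these days, 0.83 CPM against 3.61. The sum of the 10 genes was 146 to 159, 839 to 1218 and 7323 to 8488 CPM on the 3 days. Of 8 serotonin neuron markers, 7 were tested, and 1 gene of the list was at 0 in every Day42 library. From Day21 to Day42, 6 rose and none fell (median 8.76), and 5 rose without Day42 replicate 3. Of SLC18A2, a gene of this list, that library had 65 counts, against 7596 and 9399 in the other Day42 libraries. Of 8 pluripotency markers, 4 fell from Day0 to Day21 and none rose (median -9.58), and 8 fell without Day42 replicate 3. Of 10 cell division genes, 1 fell from Day0 to Day21 in the fit of the 2 days alone (median -0.10 with all libraries), and 8 fell from Day21 to Day42, 9 without Day42 replicate 3 (median log2 fold change -7.00, all genes -0.54). Their sum was 1743 to 2210 CPM on Day0, 1637 to 1805 on Day21 and 63.3 to 75.8 on Day42. MKI67, a marker of cycling cells, went from 95.9 CPM on Day21 to 0.0657 on Day42 (adjusted p = 0.0001). It was under 12 counts in every Day42 library, and BUB1 was at 0 on Day42. The part of cycling in the falls of the markers was not tested.

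**Figure D4:**
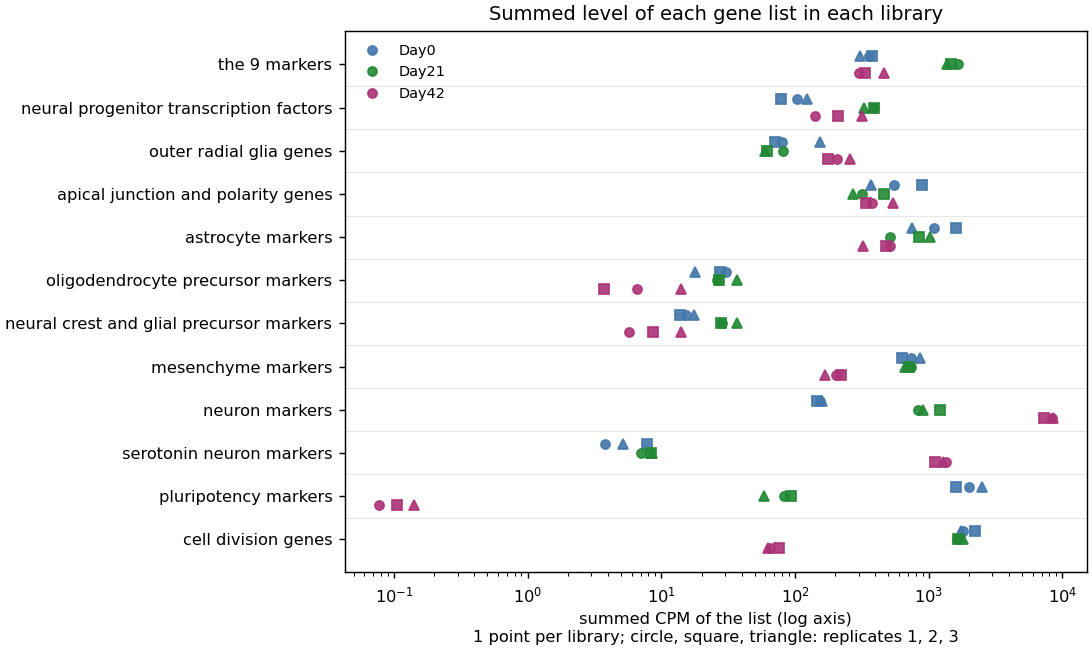
Summed CPM of the 9 markers and of 11 other gene lists (horizontal log axis) in each library, coloured by day and shaped by replicate. The markers peaked on Day21 at 1375 to 1653 CPM, cell division genes lay at 63.3 to 75.8 CPM on Day42, and neuron markers at 7323 to 8488 CPM.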

How the data were processed

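RNA was sequenced from 9 libraries of WA09 cells, 3 each on Day0, Day21 and Day42. Per the labels' protocols, RNA was extracted with Trizol and 10 ng per sample entered a NEBNext low-input library. In the submitters' processing notes, GRCh38, cutadapt 1.9 and FastQC are named. The reads were aligned and counted with tools, strand setting and gene models not given in the sources used here. As deposited, the table holds raw counts per gene and FPKM computed by the authors, per the file headers, and 0 of its value columns could not be matched to a library. The count 4 was found 7999 times, while 3 was found 3658 times and 5 was found 3700 times.

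From the counts, filterByExpr kept 20156 genes, libraries were scaled by TMM, and edgeR 4.0.16 (R 4.3.3) fitted 1 mean per day to all 9 libraries, with 6 residual and 2.42 prior degrees of freedom. In simulated counts, the fit called 64% of log2 changes of 2 and 100% of those of 3, with 7 false calls among 19576 genes. The simulation gave all genes and libraries the same spread and held no library like Day42 replicate 3. It therefore says nothing on the effect of that library. Alternatives used DESeq2 1.42.0, which gave an adjusted p for 18688 genes and none for SLC1A3, limma 3.58.1 on log2(FPKM + 1) or log2(FPKM + 0.1) on genes that reached an FPKM of 1 in 3 libraries, other scaling and filters, and left-out libraries. The fits with library totals, and of 2 days without Day42 replicate 3, were added after the data were seen.

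The members and the 12 other gene lists were chosen with earlier results of these data known. Named genes are the 9 members, up to 4 called genes with the largest fold change per list, the 3 tested genes nearest each member in profile, and POU5F1 and TPH2 as checks. A few more genes were named after their values were seen, as said beside each. Some lists share genes, and the result of 1 list gene is not reported here. Promoters come from RefSeq, gene overlaps from GENCODE release 29.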

Additional observations from a re-analysis of the deposited data

How the results depend on the processing

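The number of the 9 markers called higher on Day21 than on Day0, 1 with all 9 libraries, was 4 with DESeq2, 7 with only the 2 days compared, 5 with limma on log2(FPKM + 1), 3 with a pseudocount of 0.1, 2 with library totals, and 1 to 5 when 1 library was left out, the 5 without Day42 replicate 3. DESeq2, without SLC1A3, and limma, without HOPX, each tested 8 of the 9. Markers called lower in this comparison stayed at 0 under every alternative run. From Day21 to Day42, 0 markers were called higher, 1 (HOPX) in the fit of 2 days without Day42 replicate 3, and 0 to 1 when 1 library was left out. The 4 called lower became 3 to 6. From Day0 to Day42, the 3 called higher became 1 with only the 2 days compared, 1 with the replicate number as a block (replicate block), and 1 to 3 when 1 library was left out. The 2 called lower became 6 with limma on log2(FPKM + 0.1), 5 with 2 days without Day42 replicate 3, and 2 to 5 when 1 library was left out. The only change of sign was PROM1 from Day0 to Day21, -0.0497 without Day0 replicate 1 (highest 0.455 without Day0 replicate 2). Over all markers and alternatives, 381 values kept direction and side of the threshold, 51 gained a call, 34 lost one and 1 changed sign. The cause of these moves was not tested.

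The main fit tested 20156 genes, DESeq2 18688, limma 10619 and the fit of Day0 and Day21 alone 19541. Over all genes, the calls from Day0 to Day21 were 266 higher and 238 lower. They became 1389 and 1563 with DESeq2, 2550 and 2459 with only the 2 days compared, 616 and 700 with limma on log2(FPKM + 1), 674 and 651 with a pseudocount of 0.1, 548 and 488 with library totals, and 76 and 33 with the replicate block. They became 1434 and 1460 without Day42 replicate 3, 387 and 492 without Day42 replicate 1, 423 and 561 without Day42 replicate 2, and 91 to 145 higher and 42 to 90 lower without 1 library of the other days. From Day21 to Day42, 1315 higher became 2120 with DESeq2, 2110 and 2164 with limma at pseudocounts of 1 and 0.1, 617 with the replicate block, 621 to 761 without 1 Day21 library, 2416 without Day42 replicate 3, 2306 with 2 days without it, and 1998 with library totals. The 3980 lower became 1759 and 1896 with limma, and 1803 with the block. From Day0 to Day42, 1778 higher became 1051 with the block, 1072 without Day0 replicate 1 and 3220 without Day42 replicate 3, and 4721 lower became 2079 and 2178 with limma and 2659 with the block. Libraries with the same number did not deviate together (correlations of -0.225 to 0.0266), so the numbers were not taken to pair them. Values under 12 counts per library could not be told from 0.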
